A study of Homo sapiens with 4 samples.

Results

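ABHD5, the protein that switches on the main triglyceride lipase of the cell, was examined together with 9 genes of lipid droplets in 2 melanoma cell lines. The 10 genes were named by symbol, PNPLA2, LIPE and MGLL being lipases, G0S2 and HILPDA inhibitors of the first lipase, PLIN2 and PLIN3 droplet coat proteins and DGAT1 and DGAT2 the enzymes that finish triglyceride. They were selected on measured values, because ABHD5 was lower with siLINC00622 in both lines in these same libraries. Of the 17755 genes in the expression table, 9 of the 10 were listed. G0S2 is not listed in the table and was not analysed here.

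The study asked which genes respond when LINC00622, a long non-coding RNA expressed in melanoma, is knocked down. SK-MEL-28 and A375, established human melanoma lines, received either a control siRNA (siNC) or an siRNA against LINC00622 (siLINC00622). Cells of all 4 groups were kept 6 h without serum and then 24 h in medium with 10% serum. Poly(A) RNA of each group was sequenced as 1 library, 4 in all, so a group has no replicate and no test within a cell line exists. The labels give the tissue as melanoma, and the samples are cultured cells of these lines.

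Triglyceride is stored in lipid droplets and is taken apart in steps by 3 lipases. PNPLA2 (ATGL) removes the first fatty acid, LIPE (HSL) the next and MGLL (monoacylglycerol lipase) the last. ABHD5 (CGI-58) has no triglyceride lipase activity of its own, binds PNPLA2 and raises its activity, and is held at the droplet by perilipins until it is released. Loss of ABHD5 in people causes a storage disease in which triglyceride builds up in many tissues, the skin among them.

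The siRNA targets are shown because a short match between an siRNA and a 3′ UTR can by itself lower an mRNA. The study lists 2 siRNAs against LINC00622, and which of them entered the sequenced cells is not given in the sources used here. Each target is written 5′ to 3′, with the 7 bases that pair with positions 2 to 8 of the guide strand in capitals, and is followed by the matching sites found in members' longest annotated 3′ UTRs.
siLINC00622_1 target: ccctaaagaaaGTGAGAAa
siLINC00622_2 target: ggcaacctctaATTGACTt
ABHD5 3′ UTR window: ataatctgacaGTGAGAAa
DGAT2 3′ UTR window: aataaatgaaaGTGAGAAt
The ABHD5 window lies at chr3:43721366-43721384 on the plus strand of GRCh38, in the annotation of GENCODE 29, and its match begins at base 2845 of a 3′ UTR of 4193 bases. The ABHD5 window has 11 of 19 bases in common with the target of siLINC00622_1, and the base after the match is an A, as in the target. The DGAT2 window, at chr11:75801512-75801530 on the plus strand, has 13 of 19 bases in common and begins its match at base 1015 of 1027. GTGAGAA, searched on the transcript strand only, was found in 1801 of 12368 longest 3′ UTRs (14.6%), and ATTGACT in 1436 (11.6%). Among 3′ UTRs within 25% of the length of the ABHD5 one, 28.7% held GTGAGAA, and among those near the length of the DGAT2 one 8.63% did. The other 7 listed members held neither word in their longest 3′ UTR. ATTGACT was in the longest 3′ UTR of no member, and in 2 of the 6 annotated 3′ UTRs of ABHD5. GTGAGAA was in 1 of these 6. A match describes the sequence, and its part in the levels below was not tested.

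Library totals were between 31269923 and 36384819 counts. LINC00622 itself was read from 309 and 135 counts in the SK-MEL-28 libraries with siNC and siLINC00622, a log2 ratio of -1.21. The A375 libraries gave 135 and 86 counts of it, a log2 ratio of -0.84. All 10 melanocyte lineage markers were listed, with a summed FPKM (counts scaled to the library total and to each kilobase of gene length) of 136 to 169 in A375, and 2068 to 2216 in SK-MEL-28. Of 8 adipocyte markers 1 was listed, the widely expressed receptor ADIPOR2, while the defining fat cell genes ADIPOQ, LEP, PLIN1, CIDEC and FABP4 were not listed. Of the keratinocyte, fibroblast and immune markers, 3 of 7, 1 of 7 and 1 of 7 were listed. The fibroblast marker LUM had 187 and 372 counts in A375 with siNC and siLINC00622, or 2.24 and 3.83 FPKM. In SK-MEL-28 it was higher, at 9.08 and 9.77 FPKM in that order. The part of such markers in the results was not tested. In bulk RNA, fewer cells of a kind and less RNA per cell cannot be told apart.

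In SK-MEL-28, ABHD5 was read from 740 counts under siNC and 273 under siLINC00622. In A375 it had 944 and 439 counts. The level per length went from 4.0 to 1.60 FPKM in A375, and in SK-MEL-28 from 2.96 to 1.06 FPKM. In each line the siLINC00622 library was below the siNC library, which is what the selection used. TMM scaling within the line gave SK-MEL-28 a log2 ratio of -1.46 (95% Clopper-Pearson interval of counting error -1.68 to -1.27), or 2.76-fold lower. For A375 the value was -1.31 (-1.48 to -1.15), or 2.48-fold lower. Counted from the lowest log2 ratio, ABHD5 stood 55th of the 16021 genes that had 10 or more counts in A375, and 80th of the 15442 in SK-MEL-28. The ratios of the lines differed by -0.16 (SK-MEL-28 minus A375), and the counting interval of that difference, -0.42 to 0.11, included 0. These ABHD5 values are a description with no test, since the gene was chosen from them.

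ABHD5 (ENSG00000011198) runs from 43690108 to 43734371 on the plus strand of chromosome 3 and shares 170 exon bases with ANO10 on the opposite strand. The kit named in the study does not mark strand, so reads from those bases cannot be assigned to either gene. ANO10 had 801 counts under siNC and 884 under siLINC00622 in A375. In SK-MEL-28 its counts were 960 and 750.

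**Figure D1:**
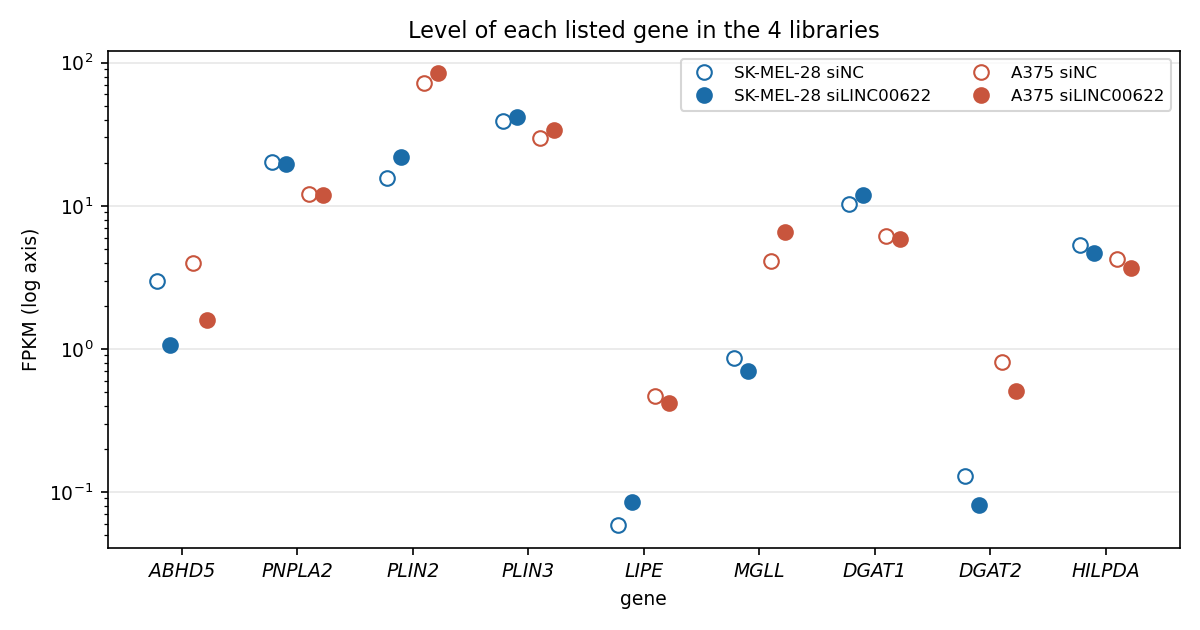
FPKM of the 9 listed members on a log10 axis in each of the 4 libraries, 1 point per library with no error bar because a group is 1 library. The ABHD5 points with siLINC00622, at 1.06 and 1.60 FPKM, lie below those with siNC at 2.96 and 4.0, while the PNPLA2 points of each line nearly coincide.

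The lipase that ABHD5 activates was read at nearly the same level with both siRNAs. PNPLA2 (ENSG00000177666, chromosome 11, 818902 to 825573) had 20.2 and 19.7 FPKM in SK-MEL-28, from 2567 and 2578 counts. In A375 it had 12.1 and 11.9 FPKM, from 1449 and 1657 counts. Its log2 ratio was -0.02 (-0.12 to 0.09) in A375, with -0.03 (-0.10 to 0.05) in SK-MEL-28, so that counting error leaves room for a change of at most 0.12 either way. There were therefore more PNPLA2 transcripts per ABHD5 transcript after knockdown. The quotient of their FPKM went from 3.02 to 7.43 in A375, while SK-MEL-28 went from 6.83 to 18.6, nearly all of it from ABHD5.

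The next lipase of the pathway was scarce and the last one parted between the lines. LIPE (ENSG00000079435, chromosome 19, 42401507 to 42427426) had 76 and 78 counts in A375, and SK-MEL-28 gave 10 and 15. At that depth its log2 ratios of -0.17 (-0.65 to 0.30) in A375 and 0.48 (-0.70 to 1.87) in SK-MEL-28 give no detectable change. MGLL (ENSG00000074416, chromosome 3, 127689062 to 128052190) was slightly lower with siLINC00622 in SK-MEL-28, with 336 counts under siNC and 283 under siLINC00622, which is 0.856 and 0.699 FPKM. In A375 the MGLL counts were 1525 and 2835, which is 4.12 and 6.58 FPKM. Its log2 ratio was 0.68 (0.59 to 0.78) in A375, a 1.61-fold higher level, while SK-MEL-28 gave -0.28 (-0.51 to -0.05). The difference of the ratios, SK-MEL-28 minus A375, was -0.96 (-1.21 to -0.71). That interval covers counting error only, and with 1 library per condition the difference was not tested against the spread between cultures.

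HILPDA (ENSG00000135245, chromosome 7, 128455849 to 128458418), a small droplet protein that hypoxia induces and that inhibits PNPLA2, had 5.30 and 4.67 FPKM in SK-MEL-28. In A375 it had 4.22 and 3.68 FPKM. The log2 ratios, -0.17 (-0.39 to 0.05) and -0.19 (-0.43 to 0.06), were alike in both lines and their counting intervals included 0.

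PLIN2, the main droplet coat protein outside fat cells, was higher with siLINC00622 in each line. PLIN2 (ENSG00000147872, chromosome 9, 19108375 to 19149290) went from 15.7 to 22.0 FPKM in SK-MEL-28, from 2604 to 3761 counts. In A375 it went from 72.4 to 84.2 FPKM, from 11345 to 15355 counts. The log2 ratios of 0.50 (0.43 to 0.57) and 0.23 (0.19 to 0.26) were both above 0 beyond counting error, and the first was the larger by 0.27 (0.19 to 0.35). PLIN3 (ENSG00000105355, chromosome 19, 4838341 to 4867768), a coat protein that moves between cytosol and droplets, had 29.9 and 33.7 FPKM in A375, and SK-MEL-28 gave 38.9 and 41.8. Its log2 ratios were 0.18 (0.11 to 0.26) and 0.12 (0.05 to 0.19) in that order. PLIN2 stood at 0.404 of the PLIN3 level in SK-MEL-28 with siNC and at 0.525 with siLINC00622, against 2.42 and 2.50 times it in A375.

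Of the enzymes that add the last fatty acid to triglyceride, DGAT2 was read at a lower level with siLINC00622 in both lines and DGAT1 was not. DGAT2 (ENSG00000062282, chromosome 11, 75759512 to 75801535) had 34 and 22 counts under siNC and siLINC00622 in SK-MEL-28, or 0.130 and 0.0815 FPKM. In A375 it had 200 and 147 counts, or 0.809 and 0.511 FPKM. Its log2 ratios were -0.61 (-1.50 to 0.16) and -0.65 (-0.97 to -0.34), so the lower level exceeded counting error in A375 and not in SK-MEL-28. On the scale of log2(FPKM + 1), where such low levels count for little, the differences were -0.063 and -0.26, and with a pseudocount of 0.1 these were -0.34 and -0.57, so that DGAT2 was then past the fold in neither line. DGAT1 (ENSG00000185000, chromosome 8, 144314584 to 144326910) had 10.2 and 11.9 FPKM in SK-MEL-28, a log2 ratio of 0.23 (0.13 to 0.34). In A375 it had 6.19 and 5.87 FPKM, a log2 ratio of -0.07 (-0.21 to 0.07). DGAT1 shares 139 exon bases with HSF1, a gene of 3027 to 4748 counts. The quotient of DGAT1 over DGAT2 FPKM went from 7.65 to 11.5 in A375, and in SK-MEL-28 from 78.6 to 146.

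**Figure D2:**
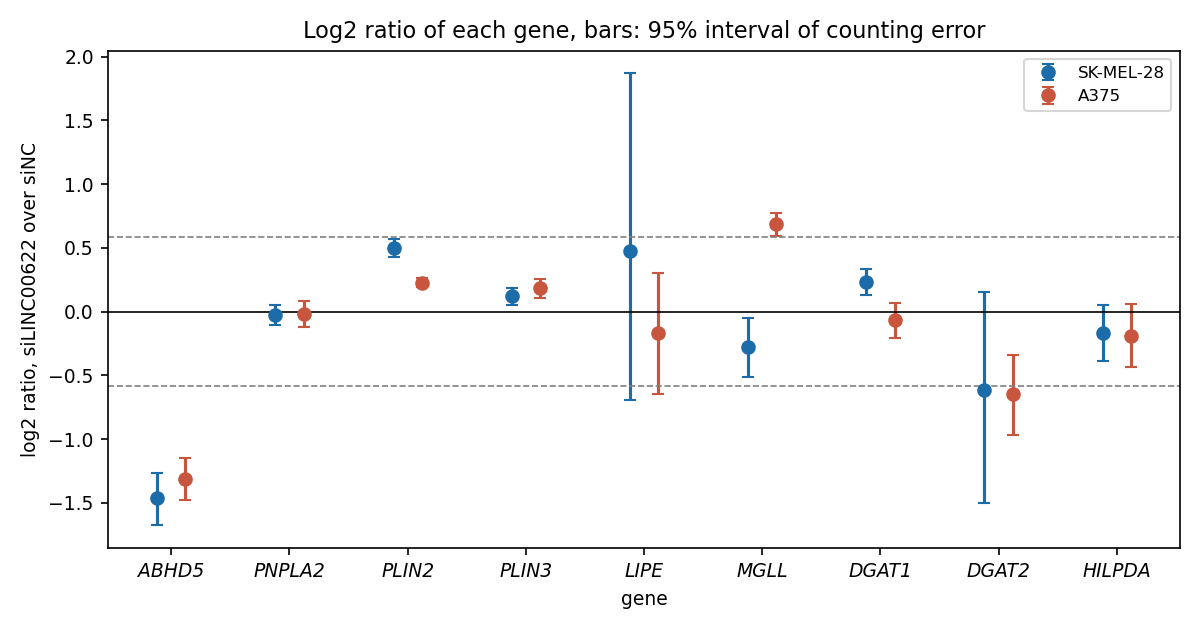
Log2 ratio of siLINC00622 over siNC for each listed member in SK-MEL-28 and A375, with 95% Clopper-Pearson bars that cover counting error only and dashed lines at a fold of 1.5. ABHD5 is at -1.46 and -1.31, and MGLL is the member on opposite sides of 0 with both bars clear of it, at -0.28 and 0.68.

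Read against a fold of 1.5, a log2 ratio of 0.58 in size, 2 of the 9 listed members were lower in SK-MEL-28, ABHD5 and DGAT2. Of 15442 genes with at least 10 counts in that line, 6.49% were lower by that fold and 4.56% higher, and no listed member was higher. In A375 the same 2 members were lower, where 4.34% of 16021 genes were, and MGLL was higher, where 4.52% were. ABHD5 and DGAT2 were thus past the fold downward in both lines, as were 161 of 14721 genes (1.09%), and no member was past it upward in both, against 0.693% of genes. The count includes the gene that the selection used, so nothing is read from it about the set. The members past the fold by least were DGAT2, at -0.65 in A375 (-0.61 in SK-MEL-28), and MGLL at 0.68 in A375. The nearest member short of it was PLIN2, at 0.50 in SK-MEL-28.

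**Figure D3:**
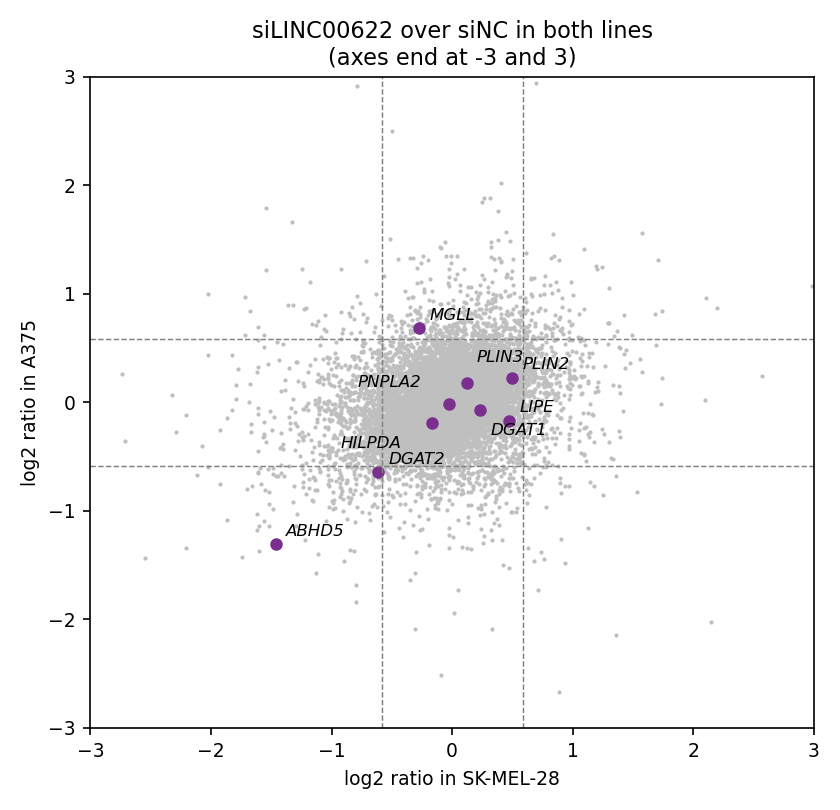
Log2 ratio in A375 against that in SK-MEL-28 for 14721 genes with at least 10 counts in each line (grey), with the listed members named and dashed lines at a fold of 1.5. The axes end at 3 and 4 genes lie beyond them. ABHD5 sits in the lower left at -1.46 and -1.31. DGAT2 lies just past both dashed lines at -0.61 and -0.65, MGLL past the upper one in A375 at 0.68, and the other 6 members inside them.

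A fit of both lines together asked which genes changed the same way in each. With the cell line as a block, edgeR's quasi-likelihood test with Benjamini-Hochberg adjustment called 75 of 16742 genes (0.448%), 33 higher and 42 lower. None of the 8 listed members other than ABHD5 was called by edgeR or by limma-voom, which called 0.675% of all genes. DESeq2 called none of the 5 to which it gave an adjusted p, where it called 3.41% of 8952 genes, and it gave none to LIPE, DGAT2 and HILPDA. An unadjusted edgeR p below 0.05 was found for 2 of the 8, and for 14.5% of all genes. These were PLIN2, with a log2 change of 0.37 (adjusted p = 0.155 by the edgeR quasi-likelihood test), and DGAT2, with -0.64 (adjusted p = 0.246 by the same test). The adjusted p of the other 6 was between 0.472 and 0.992 in the edgeR fit. ABHD5 had a fitted log2 change of -1.38, given as a description. The fit has 1 residual degree of freedom, so its error for a gene rests largely on a value shared across genes. MGLL, with ratios of opposite sign, had an adjusted p of 0.611 by edgeR.

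Apart from ABHD5, each listed member had a fitted log2 difference between the lines larger in size than its fitted change with the siRNA. With the treatment as a block, edgeR's quasi-likelihood test called PNPLA2, PLIN2, PLIN3, MGLL, DGAT1 and HILPDA between SK-MEL-28 and A375, beside 67.7% of all genes tested, so that a call is the usual state of a gene in this contrast. Higher in A375 were MGLL (log2 difference SK-MEL-28 minus A375 of -2.58) and PLIN2 (-1.90), with adjusted p-values from the edgeR fit of 5.96e-05 and 5.31e-06. DGAT2 (-2.47) and LIPE (-2.44) were also higher there, given with no test, since the lowest mean FPKM of a listed gene was 0.25 and both lay below that in SK-MEL-28 and are in the table through A375. Higher in SK-MEL-28 were DGAT1 (1.04), PNPLA2 (0.91), PLIN3 (0.51) and HILPDA (0.51), with adjusted p-values from the edgeR fit of 0.000186, 0.000143, 0.00187 and 0.019. ABHD5 had a log2 difference of -0.34, slightly higher in A375, given with no test because the same 4 values chose it. The HILPDA call was not made by DESeq2 or with library totals alone. SK-MEL-28 thus held more transcripts of the lipase PNPLA2 and of DGAT1, and A375 more of PLIN2 and MGLL.

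By level per length, ABHD5 was the sixth of the 9 listed members in both SK-MEL-28 libraries and the seventh in both A375 libraries. In SK-MEL-28 the FPKM ran from PLIN3 at 38.9 and PNPLA2 at 20.2 with siNC down to DGAT2 at 0.130 and LIPE at 0.0585. In A375 with siNC it ran from PLIN2 at 72.4 to DGAT2 at 0.809 and LIPE at 0.471. There ABHD5 at 4.0, MGLL at 4.12 and HILPDA at 4.22 FPKM stood close together with siNC, and with siLINC00622 they were at 1.60, 6.58 and 3.68. No spread between replicate libraries exists to order such neighbours.

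The wider pathway was read from lists of genes by role, each described by its counts past a fold of 1.5 and its median log2 ratio, beside a median of 0.00 in each line over all genes with at least 10 counts. Of 28 enzymes and regulators of lipolysis 19 were listed, with medians of -0.01 and 0.03. In SK-MEL-28, 1 of 17 was higher and 2 were lower, where 4.56% and 6.49% of all genes were, and in A375 1 of 18 was higher, where 4.52% of all genes were. LDAH, a hydrolase of the droplet surface, had 644 and 329 counts under siNC and siLINC00622 in SK-MEL-28, a log2 ratio of -1.0, and a log2 ratio of -0.45 in A375 (adjusted p = 0.127 by edgeR). PRKAR2B, a regulatory subunit of protein kinase A, whose phosphorylation of perilipin and LIPE starts lipolysis, had 1183 and 673 counts in SK-MEL-28, a log2 ratio of -0.84. Its A375 counts were 1420 and 1538, a log2 ratio of -0.09 (-0.20 to 0.01). AQP3, a channel for glycerol, had 150 and 298 counts in A375, a log2 ratio of 0.77, and 7 and 7 counts in the other line. PNPLA7, a lysophospholipase related to PNPLA2, was the gene past the fold upward in SK-MEL-28, with 21 and 41 counts against 170 and 181 in A375.

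Of 31 droplet coat and formation proteins 24 were listed, with medians of 0.11 and 0.10. In each line 1 was higher by the fold, beside 4.56% and 4.52% of all genes. This was METTL7B, with 238 and 416 counts in A375, a log2 ratio of 0.59, and 5 and 10 counts in the other line. DHRS3, a retinal reductase of the same list, had log2 ratios of -0.54 and 0.28 (adjusted p = 0.947 by edgeR). Of 28 genes of triglyceride and sterol ester synthesis 22 were listed, with medians of 0.07 and 0.00. LPCAT2 was the gene of that list past the fold, 1 of 21 beside 6.49% of all genes, lower in SK-MEL-28 from 2633 to 1720 counts, a log2 ratio of -0.64, with 0.09 in A375. LPCAT1, its relative in phosphatidylcholine remodelling, had log2 ratios of 0.55 and 0.29 (adjusted p = 0.127 by edgeR).

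Of 23 genes of fatty acid oxidation 20 were listed, with medians of 0.12 and 0.16. In A375 2 were higher by the fold, ACADS from 114 to 209 counts (log2 ratio 0.66) and DECR1 from 582 to 1088 (0.69), beside 4.52% of all genes. In SK-MEL-28 their log2 ratios were 0.035 and 0.040, and none of 20 genes was past the fold. HADH, a dehydrogenase of the pathway, had log2 ratios of -0.55 and -0.44 (adjusted p = 0.106 by edgeR). Of 16 genes of fatty acid uptake and transport 12 were listed, with medians of 0.05 and -0.10, and FABP7, a fatty acid binding protein, was the 1 of 11 lower in SK-MEL-28 (6.49% of all genes), from 15 to 5 counts, with 83 and 84 in A375. CAV1, a caveolin of that list, had log2 ratios of -0.44 and -0.44 (adjusted p = 0.101 by edgeR).

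Among PPAR receptors and their targets 12 of 15 genes were listed, with medians of 0.19 and 0.19. By the fold 3 of 12 were higher in A375, beside 4.52% of all genes, while SK-MEL-28 had 1 of 11 higher, beside 4.56%. PPARGC1A, the coactivator PGC-1α that drives mitochondrial oxidation, had 609 counts under siNC and 2040 under siLINC00622 in SK-MEL-28. In A375 it had 31 and 92 counts. Both siLINC00622 libraries exceeded the siNC library of their line, with log2 ratios of 1.71 (1.58 to 1.85) and 1.31 (0.76 to 2.0). PPARGC1A was the gene of the 123 tested in the 7 lists that the treatment fit called, beside 0.448% of all genes (log2 change 1.63, adjusted p = 0.0338 by the edgeR quasi-likelihood test, range over its alternatives 5.22e-07 to 1.00). Of these 123 genes 27 (22.0%) had an unadjusted edgeR p below 0.05, where 14.5% of all genes did. DESeq2 called PPARGC1A and CAV1, 2 of the 96 to which it gave an adjusted p, beside 3.41% of all genes. limma-voom called PPARGC1A, 1 of 123, beside 0.675% of all genes. The lists were chosen with earlier results of these data known, so these calls and shares are given as a description. PDK4, a kinase that turns off pyruvate use, went from 124 to 233 counts in A375 (log2 ratio 0.69), and ANGPTL4, a secreted inhibitor of lipoprotein lipase, from 155 to 351 (0.96). In SK-MEL-28 PDK4 had 3 and 2 counts and ANGPTL4 8 and 11.

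Of 20 genes of the ABHD family 16 were listed, with medians of 0.14 and 0.15, and ABHD5 itself is not among them. In SK-MEL-28, 1 of 16 was past the fold, where 4.56% of all genes were higher by it. This was ABHD4, the closest relative of ABHD5, from 920 to 1522 counts (log2 ratio 0.69). In A375 ABHD4 went from 449 to 667 counts (0.36), short of the fold (adjusted p = 0.122 by edgeR).

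**Figure D4:**
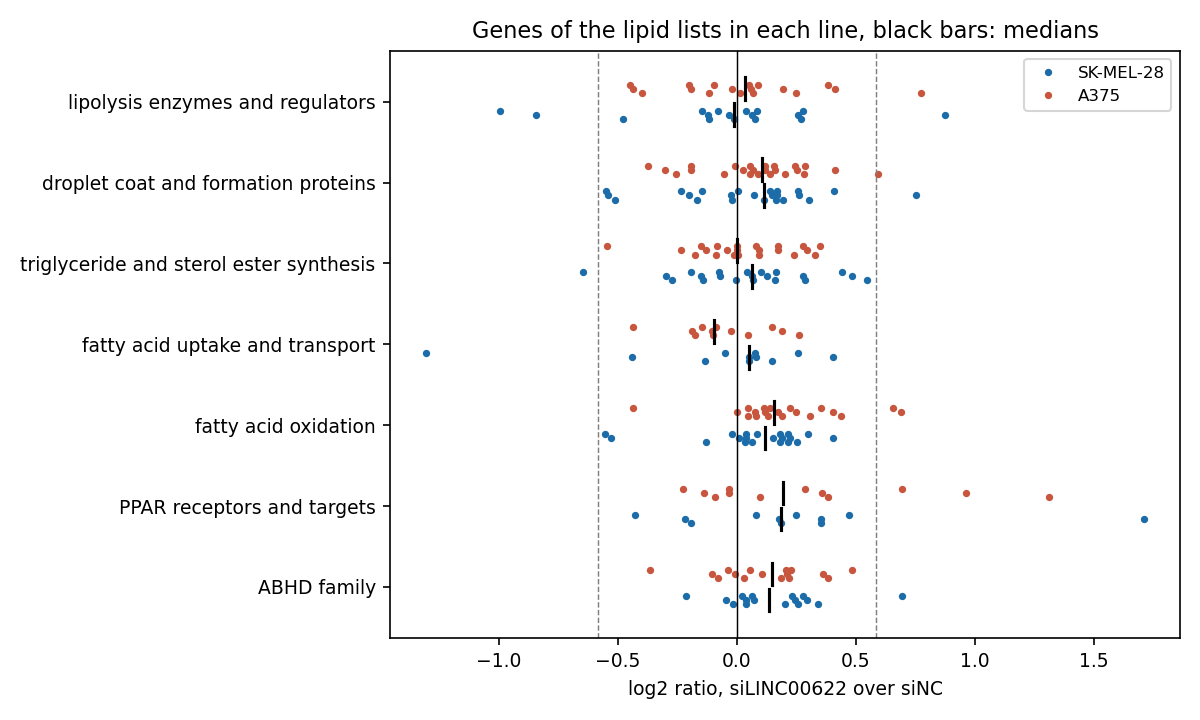
Log2 ratio of siLINC00622 over siNC of each listed gene in the 7 lists, 1 point per gene and line, with bars at the list medians and dashed lines at a fold of 1.5. Most points lie between the dashed lines, and PPARGC1A stands to the right at 1.71 in SK-MEL-28 and 1.31 in A375.

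Over the 4 libraries, the genes whose pattern was most like that of ABHD5 were found by the root mean square difference of their centred log2 CPM among the 14295 genes that reached 50 counts in some library. RNF138, a ubiquitin ligase, was nearest at 0.0867, with 1405 and 473 counts in SK-MEL-28, then 1523 and 797 in A375. Then came KRR1, a ribosome assembly factor, at 0.110, with 2306, 703, 2672 and 1152 counts in the same order. TRUB1, a pseudouridine synthase, was at 0.166, PIK3R4, a regulatory subunit of a phosphatidylinositol kinase, at 0.179 and LTV1, which helps export the small ribosomal subunit, at 0.185. None of these 5 is a lipid droplet gene on the lists. The other listed members lay further off, from 0.739 for HILPDA to 1.38 for MGLL. The longest 3′ UTRs of RNF138, KRR1 and PIK3R4 held 2, 2 and 1 matches to GTGAGAA, where 17.9%, 49.3% and 2.21% of 3′ UTRs of like length hold at least 1. Those of TRUB1 and LTV1 held 1 match each to ATTGACT, where 13.4% and 1.46% of such 3′ UTRs do. The genes were picked for their pattern over these libraries, and the part of the matches in it was not tested.

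**Figure D5:**
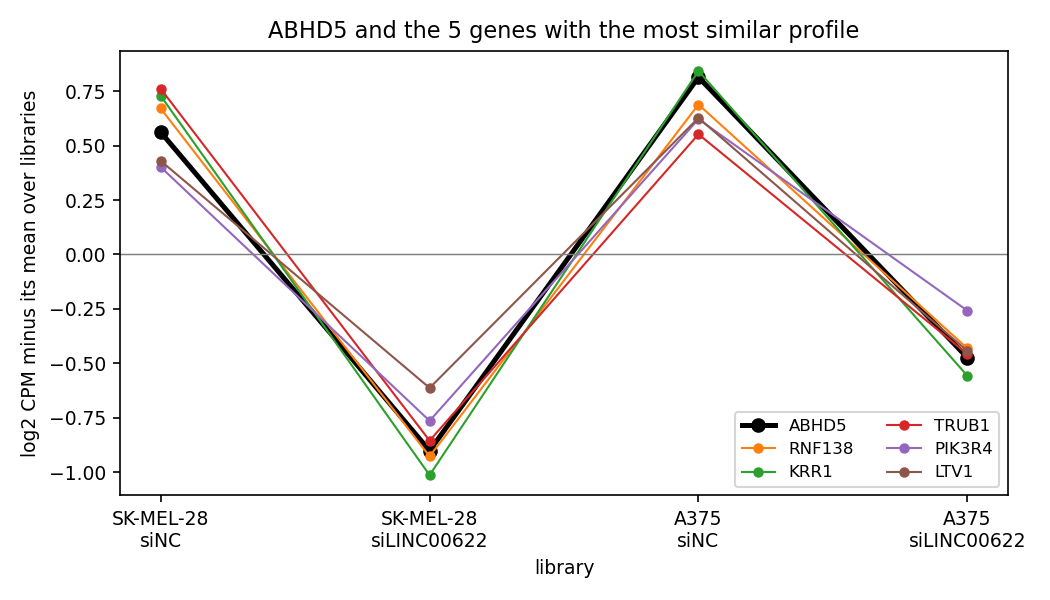
Centred log2 CPM in the 4 libraries of ABHD5 (black) and the 5 genes most like it (colours). The lines of the 5 genes follow ABHD5, high with siNC and low with siLINC00622 in both lines, with root mean square differences of 0.0867 to 0.185.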

How the data were processed

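The 4 RNA-Seq libraries, 1 for each cell line and siRNA, were grouped by their labels. The authors prepared poly(A) libraries with a kit that does not mark strand and sequenced paired ends. The submitters' processing notes name HISAT2, TopHat2, Bowtie2, HISAT and hg19 without a role, and the counter and annotation are not given in the sources used here. The deposited counts are raw whole numbers for each gene. The deposited CPM values are these counts scaled to the library total, and the deposited FPKM values are CPM per kilobase with 1 length per gene. The deposited TPM values served as an alternative for the levels. The lowest mean FPKM in the table was 0.25.

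Log2 ratios within a line used TMM factors (edgeR 4.0.16, R 4.3.3) and a prior count of 2, with 95% Clopper-Pearson intervals (scipy 1.17.1). Reads carry no molecular identifiers, so the intervals cover counting error only. The treatment effect was fitted over 16742 genes with at least 10 counts in 1 library, by edgeR's quasi-likelihood test with cell line as a block, and the difference between lines with treatment as a block. Adjusted p-values are Benjamini-Hochberg values over all genes tested and measure only the spread between these libraries. DESeq2 1.42.0 and limma 3.58.1 were alternatives. In counts simulated for the treatment fit on 16512 genes, 42 of 50 genes planted at a log2 change of -1, 44 of 50 at 1, 48 of 50 at -2 and 50 of 50 at 2 were called, and 4 of 16312 unchanged genes. The simulated lines had equal means, every gene had the same spread setting, and each planted change was the same in both lines. The real libraries differ in this, so these shares are not the recovery to expect in them. Positions and 3′ UTRs come from GRCh38 with GENCODE 29, which held 98.8% of the table's Ensembl identifiers. The expression table has no coordinates.

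The members and gene lists were chosen with earlier results of these data known. ANO10 and HSF1, which are in the expression table, were named for exon bases shared with a member, and some cell type markers beside their counts. Annotated genes that are not listed share up to 502 exon bases with PLIN3, 500 with LIPE and 444 with DGAT1. For DGAT2, PNPLA2 and HILPDA these are up to 423, 401 and 186 bases. The part of reads from such bases in the counts was not tested. The other genes named besides the members are LINC00622, the 5 most like ABHD5, and some list genes. These list genes were past a fold of 1.5 in both lines with at least 50 counts, or called in the treatment fit. Where a list had none, the gene with the largest mean absolute log2 ratio among those reaching 50 counts in both lines was named, and other list genes past the fold in 1 line were named after their values were seen.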

Additional observations from a re-analysis of the deposited data

Results flagged for a closer look

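MGLL, the lipase that releases the last fatty acid, had log2 ratios of opposite sign in the lines, -0.28 in SK-MEL-28 and 0.68 in A375. It stood out because the sample pairs of the lines moved in opposite directions with both counting intervals clear of 0, which was not so for LIPE and DGAT1, whose ratios also had opposite signs. The difference was not tested against the spread between cultures.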

How the results depend on the processing

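Of 144 log2 ratios of members recomputed under other scalings, prior counts and FPKM, 140 stayed within their counting interval. The 4 outside it were values of log2(FPKM + 1), for ABHD5 in both lines and for MGLL and DGAT2 in A375. Intervals are wide at low counts, so LIPE in SK-MEL-28 stayed within its own at 0.036 on that scale, against 0.48. On the scale of log2(FPKM + 1), ABHD5 was at -0.94 in A375, and at -0.94 in SK-MEL-28, and DGAT2 at -0.26 and -0.063. Members lower by the fold in SK-MEL-28 numbered 1 with FPKM + 1, 1 at a fold of 2 and 1 with at least 50 counts, and members lower in A375 1 with FPKM + 1 and 1 at a fold of 2. Members higher in A375 numbered 0 with FPKM + 1 and 0 at a fold of 2. The treatment fit called 1 gene with library totals alone, 305 by DESeq2, 113 by limma-voom, 121 without a filter, 0 with at least 50 counts and 0 without the cell line block. Its log2 change of LIPE was -0.014 with library totals alone and -0.044 without the block, and that of DHRS3 0.086 by limma-voom and 0.16 without the block. The causes were not tested. PPARGC1A was not called with library totals alone, with at least 50 counts or without the block. Calls between the lines numbered 8713 to 11460. Leaving out a replicate was not possible because each condition is 1 library. No paired analysis was possible because of that either, beyond the cell line block of the treatment fit. Depth limits LIPE and DGAT2 in SK-MEL-28, with 10 to 34 counts.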
